A study of Bos taurus with 6 samples.

Results

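The nuclear genes of respiratory complexes II, III and IV and of complex V, the ATP synthase, were followed in the longissimus dorsi muscle of cattle. Members were all genes named SDHA, SDHB, SDHC, SDHD or CYC1, together with every gene whose name begins with UQCR, COX4, COX5, COX6, COX7, COX8 or ATP5, with pseudogenes that carry only a LOC name left out. The rule uses gene names and no measured value. It gave 47 of the 18010 genes listed, of which 4 belong to complex II, 9 to complex III, 15 to complex IV and 19 to complex V. RNA-Seq was performed on 3 Shandong black cattle (B1, B2 and B3) and 3 Luxi cattle (L1, L2 and L3), all 18 months old, with 1 library per animal. Luxi cattle is a yellow breed of local origin, and Shandong black cattle was bred from Japanese black, Luxi and Bohai black cattle with the use of cloned embryos. The animals of each breed came from a different company, so that breed and herd cannot be told apart. The labels name no treatment and no sex.

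Complex II, succinate dehydrogenase, passes electrons from succinate of the citric acid cycle to ubiquinone, and it is the only one of the 4 whose subunits are all encoded in the nucleus. Complex III passes electrons from ubiquinol to cytochrome c, complex IV (cytochrome c oxidase) passes them to oxygen, and complex V uses the proton gradient to make ATP. The core of complex IV and parts of complexes III and V are encoded in the mitochondrial genome, and the nuclear subunits are built around them. In skeletal muscle these complexes are most abundant in oxidative fibres, and complex IV contains isoforms that are particular to heart and muscle.

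FPKM counts fragments per kilobase of a transcript, scaled to the depth of its library, and the FPKM of a gene was summed over its transcripts in each animal. A gene was tested where its mean FPKM reached 1 in either breed, and 45 of the 47 members passed. The other members were COX4I2, the lung isoform of subunit 4, with an FPKM of 0.0686 to 0.814, and COX7B2, a paralog of COX7B, which was listed at 0 in every animal but L2 (0.153). Among the 45 members, mean FPKM over the 6 animals ranged from 3.07 in ATP5S to 472 in COX6A2. The median member differed by 1.91 times between its highest and its lowest animal.

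The summed FPKM of each complex was higher in every Luxi animal than in every Shandong black animal. For complex II the sums were 358, 416 and 393 in B1 to B3 and 446, 503 and 487 in L1 to L3. For complex III they were 464, 542 and 496 against 736, 665 and 668. The breeds were thus apart in both complexes. The sums of complex IV were 935, 1060 and 1130 against 1151, 1214 and 1739, and those of complex V were 1304, 1477 and 1455 against 2026, 1656 and 2040. The highest Shandong black animal and the lowest Luxi animal were close in complex IV and farther apart in complex V. When the FPKM was divided by median-of-ratios size factors, which bring the typical gene of each library to the same level, only the sum of complex III kept the breeds apart, at 481 to 587 against 595 to 735. In such bulk samples, fewer cells of a type and less RNA per cell cannot be told apart.

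No single member was called different between the breeds. A call required an adjusted p-value under 0.05 by limma with Benjamini-Hochberg adjustment over all 9781 genes tested together with a log2 fold change of 1 or more in either direction, which 2.57% of all genes tested reached. No member had an adjusted p-value under 0.05 at any size of change, against 2.92% of all genes tested. Regardless of p, 4 members (UQCRB, COX7A1, ATP5MC3 and ATP5MD) reached a log2 fold change of 1, where 8.06% of all genes tested did. With 3 animals per breed, the smallest adjusted p-value of a member was 0.102 for ATP5MC3, which encodes a c-ring subunit. At an unadjusted p-value under 0.05 there were 6 members, all higher in Luxi cattle (UQCRB, COX5B, ATP5MC3, ATP5MD, ATP5ME and ATP5MG), or 13.3% of the members against 21.8% of all genes tested (15.0% higher and 6.81% lower). By limma voom on estimated read numbers, 0 of the 45 members had an adjusted p-value under 0.05, against 1.32% of all genes tested. The 95% interval of the log2 fold change was 0.65 wide to each side in the median member, and in 21 members it reached 1 or more, so that a doubling lay within it.

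By sign, 40 of the 45 members were higher in Luxi cattle, or 88.9%, where 62.5% of all genes tested had a log2 fold change above 0. The median log2 fold change, Luxi over Shandong black on log2(FPKM + 1), was 0.35 over the members and 0.13 over all genes tested. With the size factors, 33 of 45 members were above 0 (73.3%, against 51.5% of all genes tested) and the median was 0.19, against 0.02. Without L1, the animal with the largest mitochondrial share of FPKM, 36 of 45 members were above 0. The median was then 0.32, against 0.16 over all genes tested in that fit. With every animal and without scaling, all members of complexes III and V were above 0, and so were 3 of 4 in complex II and 9 of 13 in complex IV. The 5 members at or below 0 there were SDHA (-0.22), COX4I1 (-0.22), COX5A (-0.29), COX7A2 (-0.00) and COX8A (-0.02). With the size factors, 2 of 4 members of complex II were above 0, 8 of 9 of complex III, 8 of 13 of complex IV and 15 of 19 of complex V.

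**Figure D1:**
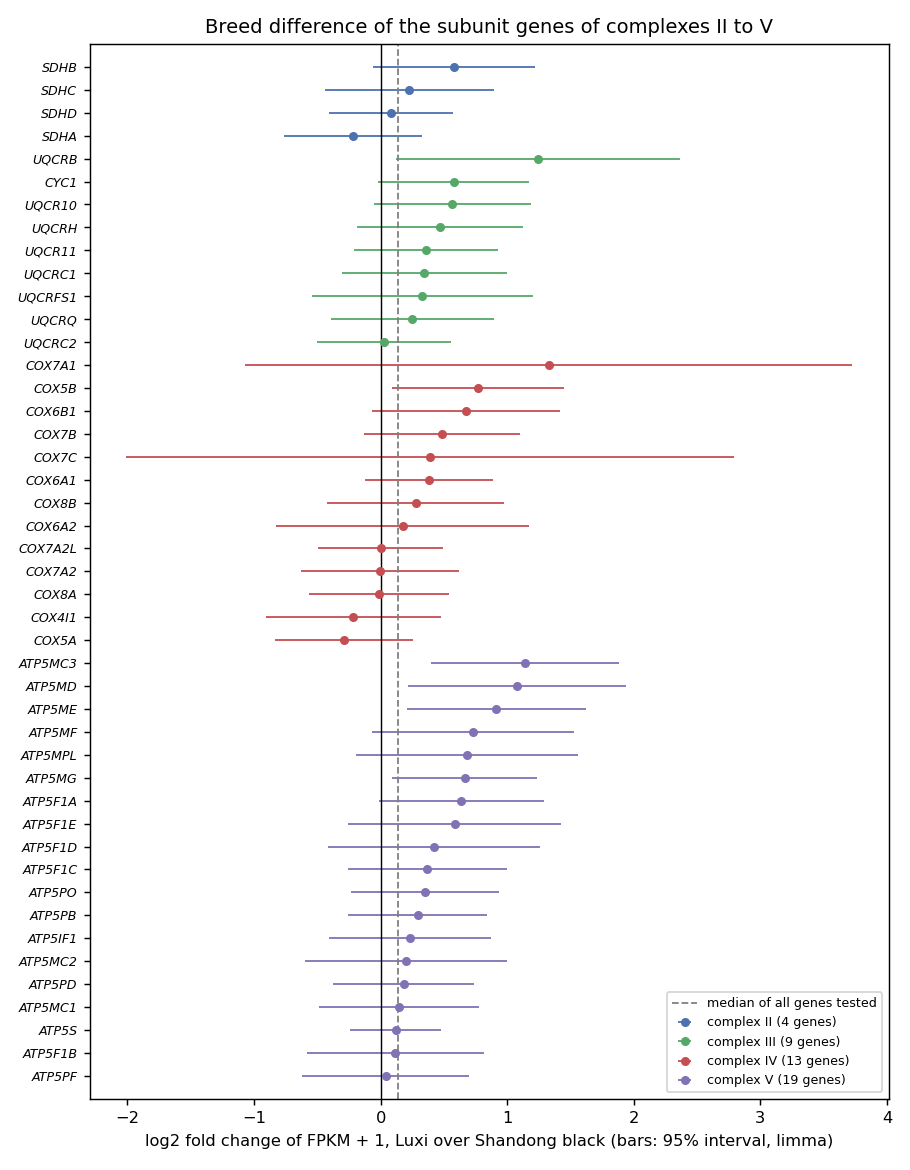
Log2 fold change of FPKM + 1, Luxi over Shandong black, for the 45 members tested, coloured by complex, with bars for the 95% interval from limma (n = 3 animals per breed) and a dashed line at the median of all genes tested. Points lie to the right of 0 in 40 members, and 39 of the 45 intervals include 0.

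In 13 members, or 28.9%, the values of the breeds did not overlap, a share close to the 29.1% of all genes tested. Of these, 12 were higher in Luxi cattle, or 26.7%, against 20.0% of all genes tested, and 8 of the 12 belong to complex V. SDHA was the only member whose animals were all lower in Luxi cattle, where 9.13% of all genes tested were. The animals also differed within the breeds. L2 was the lowest Luxi animal in 23 of the 45 members, and B1 was the lowest Shandong black animal in 29. L1 was the highest of all 6 animals in 19 members and L3 in 14.

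**Figure D2:**
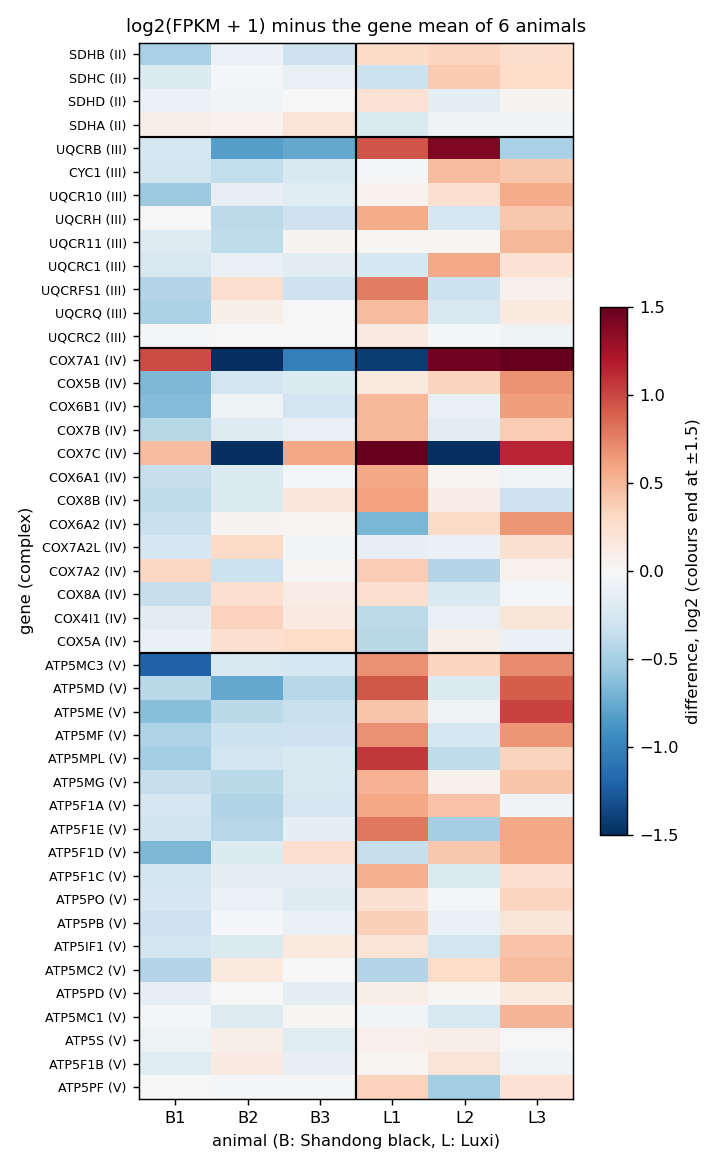
Log2(FPKM + 1) of each member in each animal minus the mean of its 6 animals, as colours that end at ±1.5, with the complex in brackets. The Luxi columns L1 and L3 are mostly red, L2 is mixed, and the 3 Shandong black columns are mostly blue.

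Complex II has 4 subunits, which differed in direction. SDHA, the flavoprotein that oxidises succinate (chromosome 20, 71804559 to 71827980, minus strand of ARS-UCD1.2), had an FPKM of 96.5, 94.0 and 104 in B1 to B3 and of 78.1, 87.4 and 87.3 in L1 to L3. Every Luxi animal was below every Shandong black animal, and the log2 fold change was -0.22 ± 0.23 (SE; limma adjusted p = 0.612). SDHB, the iron-sulfur subunit that takes up the electrons from SDHA (chromosome 2, 135549091 to 135578116, plus strand), had 148, 196 and 168 against 253, 261 and 250. Here every Luxi animal was above, with a log2 fold change of 0.58 ± 0.27 (SE; limma adjusted p = 0.265). Neither passed the test.

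Because the subunits are read in the same library, their ratio does not depend on the scaling between libraries. The FPKM of SDHB over that of SDHA was 1.53, 2.09 and 1.61 in Shandong black cattle against 3.24, 2.98 and 2.86 in Luxi cattle. The breeds did not overlap, with means of 1.74 ± 0.30 and 3.03 ± 0.19 (SD, n = 3). This ratio was chosen after its values were seen and is given without a test. The membrane anchors SDHC and SDHD, which bind ubiquinone and haem, overlapped between the breeds. SDHC had 82.3, 93.3 and 87.4 against 75.3, 125 and 115, and SDHD had 31.5, 32.6 and 33.4 against 39.2, 30.3 and 34.5. The log2 fold changes were 0.23 (95% interval -0.44 to 0.89) and 0.08 (-0.41 to 0.57).

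Complex III is built on the cytochrome b of the mitochondrial genome. Among its nuclear redox and core subunits, CYC1, which is cytochrome c1, had an FPKM of 73.0, 68.0 and 75.4 in B1 to B3 and of 87.4, 123 and 118 in L1 to L3, without overlap (log2 fold change 0.58 ± 0.25, SE; limma adjusted p = 0.240). UQCRFS1, the Rieske iron-sulfur protein and the most abundant member of the complex, had 111, 179 and 121 against 256, 120 and 157. Its breeds overlapped, with L1 highest, and its 95% interval ran from -0.55 to 1.21. Of the core proteins, UQCRC2 lay between 70.5 and 82.0 in all 6 animals, with a log2 fold change of 0.02 (95% interval -0.50 to 0.55), and UQCRC1 had a log2 fold change of 0.35.

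The small supernumerary subunits of complex III had log2 fold changes of 0.25 to 1.24, with a median of 0.47, against 0.34 over the 4 redox and core subunits. UQCRB, a small subunit near the site where ubiquinone binds (chromosome 14, 67986590 to 67991358, plus strand), had the largest value of the complex. Its FPKM was 27.4, 18.1 and 18.9 in Shandong black cattle against 64.3, 88.4 and 23.3 in Luxi cattle. L1 and L2 were far above all other animals, whereas L3 was below B1, and the log2 fold change was 1.24 ± 0.48 (SE; limma adjusted p = 0.192). UQCR10, named here after its values were seen, had 54.4, 72.9 and 69.9 against 82.9, 93.9 and 117, without overlap (log2 fold change 0.57; limma adjusted p = 0.264). UQCRH, the hinge protein that helps cytochrome c1 to meet cytochrome c, UQCR11 and UQCRQ overlapped by summed FPKM, with log2 fold changes of 0.47, 0.36 and 0.25. For UQCRQ the overlap depended on assembled transcripts, as given below.

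In complex IV, the subunits without a muscle isoform lay on both sides of 0. COX5B, a zinc-binding subunit (chromosome 11, 2947406 to 2949454, minus strand), had an FPKM of 92.7, 122 and 128 in B1 to B3 and of 164, 187 and 236 in L1 to L3. It was the only tested member of complex IV without overlap, with a log2 fold change of 0.77 ± 0.29 (SE; limma adjusted p = 0.181). COX5A, a separate subunit of the matrix side, had 21.7, 28.0 and 28.5 against 17.2, 24.9 and 21.7. It overlapped, with a log2 fold change of -0.29 ± 0.23 (SE; limma adjusted p = 0.493). The FPKM of COX5B over that of COX5A was 4.27, 4.35 and 4.48 in Shandong black cattle against 9.56, 7.52 and 10.9 in Luxi cattle. These ratios lay far apart between the breeds and close together among the Shandong black animals, and they were chosen after their values were seen, so that no test is given.

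COX4I1, the ubiquitous form of the largest nuclear subunit, had 135, 193 and 165 in Shandong black cattle against 115, 140 and 171 in Luxi cattle. The breeds overlapped (log2 fold change -0.22, 95% interval -0.90 to 0.47). COX6B1, a subunit on the side of the intermembrane space, had 80.6, 120 and 103 against 179, 117 and 195. L1 and L3 were above all Shandong black animals and L2 was not, with a log2 fold change of 0.67 ± 0.32 (SE; limma adjusted p = 0.268). COX7B, a small single-helix subunit encoded on chromosome X, had a log2 fold change of 0.48.

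Complex IV contains subunits with a heart and muscle isoform and a ubiquitous isoform, and the share of each isoform in its pair does not depend on library scaling. In the muscle of both breeds the muscle isoforms were the more abundant, which is the pattern of skeletal muscle. COX6A2 made up 99.0, 99.1 and 99.0% of COX6A1 plus COX6A2 in B1 to B3 and 97.3, 99.1 and 99.4% in L1 to L3. The shares overlapped (exact two-sided permutation test, p = 0.9, where 3 animals against 3 cannot go below 0.1). COX8B made up 70.4, 63.4 and 71.5% of COX8A plus COX8B against 75.8, 75.7 and 66.4%, and these also overlapped (exact permutation p = 0.3). COX4I2 was under 1% of COX4I1 plus COX4I2 in every animal (mean 0.117 ± 0.0728% and 0.334 ± 0.319%, SD, n = 3; exact permutation p = 0.5).

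By FPKM, COX7A1 varied most between animals among the isoforms. Its share of COX7A1 plus COX7A2 was 88.5, 59.9 and 69.7% in Shandong black cattle against 55.8, 95.2 and 94.99% in Luxi cattle (exact permutation p = 0.6). The lowest and the highest share were both found in Luxi animals. Over the 4 pairs, the p-values adjusted by Benjamini-Hochberg were 0.8 to 0.9. In absolute level, COX6A2 had an FPKM of 358, 464 and 463 against 281, 552 and 715, so that L1 was the lowest and L3 the highest of all animals by FPKM (log2 fold change 0.18, 95% interval -0.82 to 1.17). By mean coverage of the reference exons, which is described below, L1 (389) lay above B1 (358), and the log2 fold change was 0.33. The ubiquitous forms COX6A1, COX7A2 and COX8A had a mean FPKM of 4.09, 5.40 and 13.1 in Shandong black cattle against 5.74, 5.44 and 12.9 in Luxi cattle. COX7A2L, a relative of COX7A2 that helps to join complexes III and IV into supercomplexes, had 6.87 ± 1.51 and 6.83 ± 1.10 (SD, n = 3), with a 95% interval of the log2 fold change from -0.49 to 0.49.

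**Figure D3:**
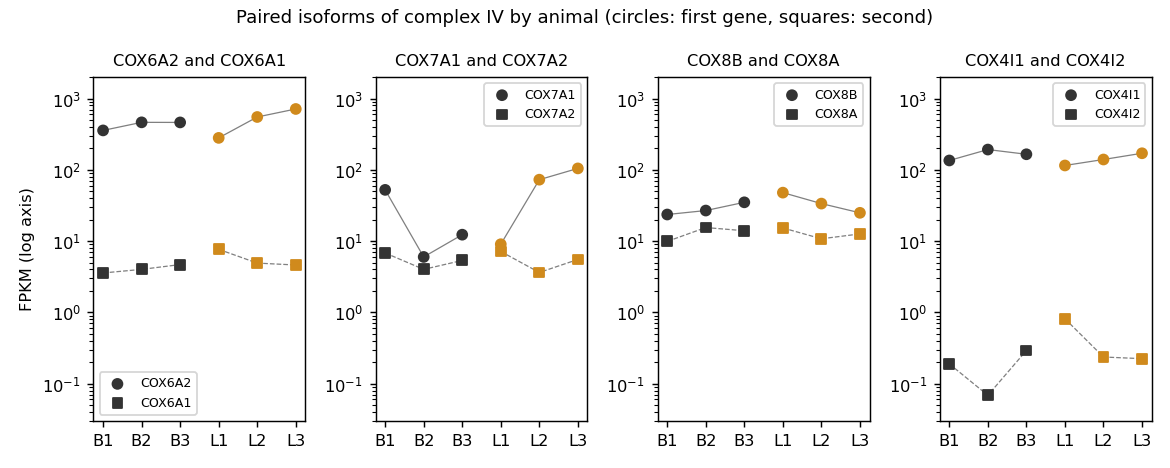
FPKM on a log axis of the 4 isoform pairs of complex IV in each animal, black for Shandong black and orange for Luxi cattle, with circles for the first and squares for the second gene named. COX6A2 lies well above COX6A1 in all 6 animals, and COX7A1 is close to COX7A2 in B2 and L1.

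In complex V, all 19 members had a log2 fold change above 0, from 0.04 to 1.14, and with the size factors 15 did. By FPKM, 8 of the 19 did not overlap between the breeds, all higher in Luxi cattle, where 20.0% of all genes tested were. Exon coverage averages the listed coverage of all same-strand transcripts over the annotated exons of a gene. By this quantity, 5 of the 19 were higher in Luxi cattle without overlap, against 20.8% of all genes tested. The F1 head, which carries the catalytic sites, had a median log2 fold change of 0.42 over its 5 subunits. ATP5F1B, the catalytic beta subunit and the most abundant member of the complex, had an FPKM of 340, 421 and 353 in B1 to B3 and of 394, 441 and 370 in L1 to L3. These overlapped, with a log2 fold change of 0.11 (95% interval -0.59 to 0.81). ATP5F1A, the alpha subunit that alternates with beta in the head, had 94.4, 82.2 and 94.8 against 169, 152 and 109. It did not overlap by FPKM, with a log2 fold change of 0.64 ± 0.28 (SE; limma adjusted p = 0.239), but by exon coverage L3 (105) lay below B2 (118). The remaining F1 subunits ATP5F1C, ATP5F1D and ATP5F1E overlapped, with log2 fold changes of 0.37, 0.42 and 0.58.

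The c ring, which turns as protons pass, is built from identical mature proteins encoded by 3 genes that differ in their import sequences. ATP5MC3 (chromosome 2, 21688206 to 21691318, plus strand) had the largest log2 fold change of the complex. Its FPKM was 11.5, 23.6 and 23.0 in Shandong black cattle against 45.4, 35.1 and 46.3 in Luxi cattle. Every Luxi animal was above every Shandong black animal, with a log2 fold change of 1.14 ± 0.32 (SE; limma adjusted p = 0.102). ATP5MC2 had 87.5, 132 and 119 against 87.7, 145 and 166, and ATP5MC1 had 52.1, 46.4 and 53.9 against 51.7, 45.0 and 76.1. Both overlapped, with log2 fold changes of 0.20 and 0.15.

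As a share of the summed FPKM of the 3 c-ring genes, ATP5MC3 made up 7.62, 11.7 and 11.7% in Shandong black cattle against 24.6, 15.6 and 16.0% in Luxi cattle. ATP5MC2 made up most of the sum in every animal but L1, where its share was 47.4%, but by exon coverage its share was 44.8, 55.4 and 50.7% in B1 to B3 and 36.3, 53.7 and 46.9% in L1 to L3. The shares of ATP5MC3 did not overlap between the breeds and were looked at after its values were known, so that no test is given.

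The small membrane subunits of complex V lay higher as a group than its other parts. ATP5ME, ATP5MF and ATP5MG (subunits e, f and g), ATP5MD and ATP5MPL belong to the membrane part of the synthase, and subunits e and g take part in joining ATP synthase into dimers. Their log2 fold changes were 0.66 to 1.08, with a median of 0.73, and 0.51 to 0.92 with the size factors. The medians of the c ring and the peripheral stalk were 0.20 and 0.24. Of the 5 genes, 4 did not overlap between the breeds by FPKM and 3 by exon coverage, where 20.0% and 20.8% of all genes tested were higher without overlap, and none passed the test (limma adjusted p = 0.142 to 0.331). They were singled out after their values were seen, and the range rests on the same animals.

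ATP5MD, the DAPIT subunit (chromosome 26, 23982412 to 23987702, minus strand), had an FPKM of 61.4, 47.5 and 60.4 against 157, 70.2 and 154 (log2 fold change 1.08 ± 0.37, SE; limma adjusted p = 0.150). ATP5ME had 15.5, 18.4 and 19.4 against 33.2, 23.6 and 50.7 (0.91 ± 0.30, SE; limma adjusted p = 0.142). In both, L2 was nearest to the Shandong black animals. ATP5MG had 59.1, 56.7 and 63.9 against 109, 79.1 and 101, and ATP5MF had 116, 128 and 128 against 258, 133 and 254. ATP5MPL had 34.8, 41.2 and 42.4 against 105, 38.3 and 63.6. L2 was again the lowest Luxi animal in these, and in ATP5MPL it lay between the Shandong black animals.

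Among the 4 subunits of the peripheral stalk, which holds the head still, ATP5PD and ATP5PO did not overlap between the breeds although their log2 fold changes were 0.18 and 0.35. ATP5PD had 100, 110 and 98.7 in B1 to B3 and 117, 111 and 122 in L1 to L3. The gap between the nearest animals of the breeds was small, by exon coverage L2 (95.5) lay below B2 (101), and with the size factors its log2 fold change was 0.02. ATP5PF had 42.7, 41.9 and 42.3 against 54.97, 29.8 and 50.05, and was the member of complex V with the smallest log2 fold change (0.04, 95% interval -0.62 to 0.70). Its Shandong black animals were nearly equal and its Luxi animals lay on both sides of them. ATP5IF1, the inhibitor that stops the synthase from running backwards, had 39.1, 41.0 and 52.7 against 55.03, 39.1 and 64.2 (log2 fold change 0.23). ATP5S, a coupling factor that is not a subunit of the core enzyme, had 2.91 ± 0.37 in Shandong black cattle against 3.23 ± 0.14 in Luxi cattle (SD, n = 3).

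In 5 members, summed transcript FPKM and the coverage of the exons gave different values for the same animal. Each library had been assembled separately. Mean coverage of the reference exons, per aligned gigabase, was computed beside FPKM, a quantity chosen after the data were seen. In 40 of the 45 members the ratio of both quantities stayed within 1.5 times between the animals. The exceptions were COX7A1, COX7C, UQCRB, ATP5MC3 and UQCRQ.

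COX7A1 had an FPKM of 52.4, 5.997 and 12.3 in B1 to B3 and of 9.04, 72.8 and 105 in L1 to L3, but an exon coverage of 52.4, 17.99 and 32.5 against 60.6, 72.8 and 105. By FPKM the breeds overlapped widely (log2 fold change 1.33 ± 1.02, SE; limma adjusted p = 0.475), and by exon coverage they did not (log2 fold change 1.27; limma adjusted p = 0.113). In B2, B3 and L1 an assembled transcript spanning 18219 to 18223 bases was listed over this gene. By exon coverage its share of COX7A1 plus COX7A2 was 85.4 ± 3.39% in Shandong black cattle against 93.3 ± 3.22% in Luxi cattle (SD, n = 3; exact permutation p = 0.1, adjusted 0.4). COX7C, a small single-helix subunit, had an FPKM of 109, 24.7 and 119 against 230, 17.7 and 175, and an exon coverage of 109, 86.7 and 119 against 231, 96.8 and 175. The low values of B2 and L2 were thus much less low by coverage, and only the same reference transcript was listed in every animal.

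UQCRB had an exon coverage of 45.7, 47.1 and 44.7 in Shandong black cattle against 191, 63.3 and 72.4 in Luxi cattle, so that by coverage L3 no longer overlapped with the Shandong black animals and L1 rather than L2 was highest. UQCRQ had an FPKM of 21.2, 31.7 and 29.9 against 41.7, 25.0 and 33.1, with overlap, and an exon coverage of 21.9, 20.4 and 24.0 against 43.5, 25.3 and 34.4, without overlap. ATP5MC3 differed between both quantities in B1 alone, at 11.5 by FPKM and 19.6 by coverage, and its log2 fold change by coverage was 0.90 (limma adjusted p = 0.0598). Its share of the c-ring genes by coverage was 17.2, 16.8 and 16.8% against 32.8, 22.4 and 22.5%, still without overlap. By coverage, 12 members were higher in Luxi cattle without overlap and 1 was lower, where 20.8% and 10.1% of all genes tested were, and no member was called. COX7A1, UQCRB and UQCRQ were without overlap by coverage and not by FPKM, and ATP5F1A, ATP5MF and ATP5PD by FPKM and not by coverage.

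**Figure D4:**
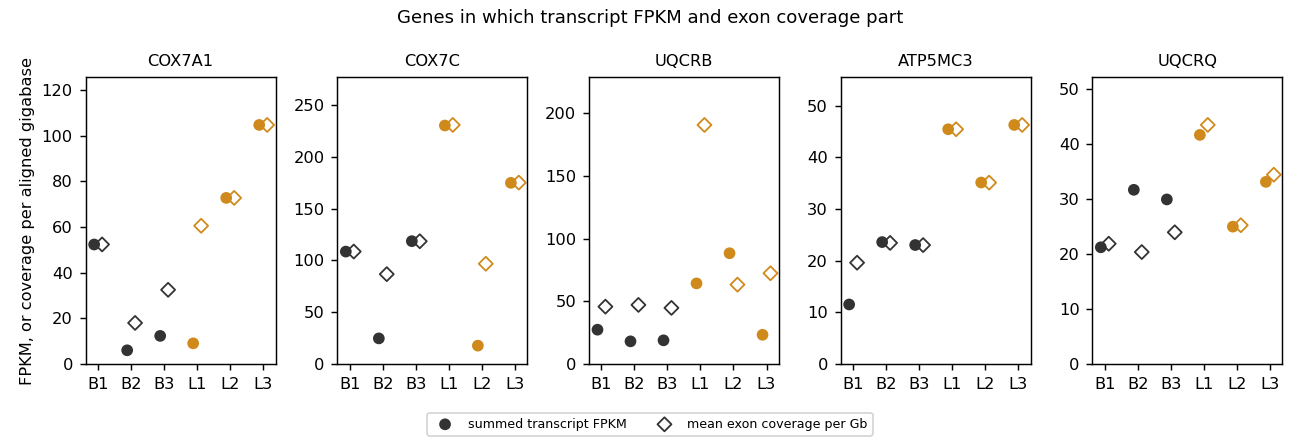
Summed transcript FPKM (filled circles) and mean exon coverage per aligned gigabase (open diamonds) of the 5 members in which both part, by animal, black for Shandong black and orange for Luxi cattle. In COX7A1 the diamond of L1 lies at 60.6 and its circle at 9.04.

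Many members are short, and the median difference between the breeds was larger in the shortest. In the 19 members with a mean transcript length under 600 bases, the median log2 fold change was 0.58, against 0.23 in 12 members of 600 to under 1000 bases and 0.29 in 13 members of 1000 to under 2000 bases. The 5 small membrane subunits of complex V have transcripts of 303 to 476 bases and belong to the shortest class. Short genes outside these complexes were also higher in Luxi cattle. The 292 other tested genes under 600 bases had a median of 0.36, with 69.2% above 0, and the 115 of them with a mean FPKM of 10 or more had a median of 0.48. Other genes of 600 to under 1000 and of 1000 to under 2000 bases had medians of 0.11 and 0.08. Other genes of 2000 bases or more had a median of 0.15. The subunit ratios given above set a shorter over a longer transcript. By mean length these were COX5B (469 bases) over COX5A (785) and SDHB (977) over SDHA (2217). The part of transcript length in the values of the short members and in these ratios was not tested.

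Relative to the Shandong black mean of each gene, the median short member was 0.77 higher in L1, 0.22 in L2 and 0.75 in L3 on the log2 scale. The median of the 115 short genes with the higher FPKM outside these complexes was 0.32, 0.31 and 0.86. L1 therefore differed between the members and the other short genes, while L3 was high in both.

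**Figure D5:**
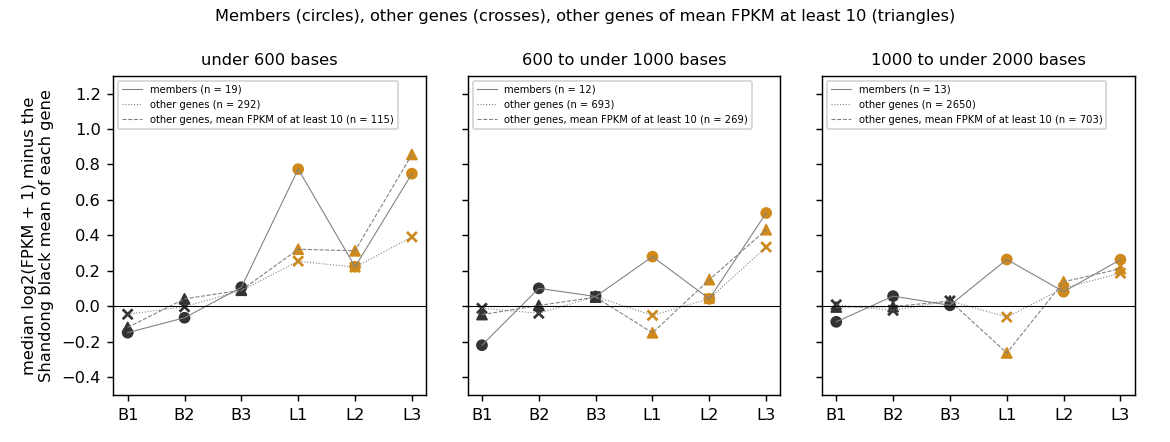
Median, over the genes of a transcript length class, of log2(FPKM + 1) in each animal minus the Shandong black mean of the gene, for members (circles), other tested genes (crosses) and those among them with a mean FPKM of 10 or more (triangles). Under 600 bases, all 3 kinds of genes lie above 0 in the 3 Luxi animals.

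Genes that work beside the members were counted in the same fit. Complex I feeds electrons from NADH into the same chain. Of its 37 nuclear subunit genes tested, 34 were above 0, or 91.9%, against 62.5% of all genes tested. Their median was 0.43 on the log2 scale, with none called. By limma, 11 (29.7%) were under an unadjusted p-value of 0.05, against 21.8% of all genes tested. In 20 (54.1%) every Luxi animal was above every Shandong black animal, against 26.7% of the members and 20.0% of all genes tested. Of 33 assembly factors and associated proteins tested, 21 were above 0, with a median of 0.20 and none called (6 under an unadjusted p-value of 0.05). Of 17 carriers and coenzyme Q genes tested, 10 were above 0, with a median of 0.27 and none called (4 under 0.05 unadjusted). The median of the assembly factors was thus nearer to the 0.13 of all genes tested than that of the subunit genes.

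Among these genes, NDUFA4, now counted as a subunit of complex IV, had an FPKM of 204, 218 and 190 in B1 to B3 and of 415, 308 and 494 in L1 to L3. The breeds did not overlap (log2 fold change 0.97; limma adjusted p = 0.135). SLC25A3, the carrier that brings phosphate to ATP synthase, had 37.6, 36.9 and 33.6 against 86.8, 47.1 and 106, also without overlap (log2 fold change 1.05; limma adjusted p = 0.132). Both were named after their values were seen. CYCS, which encodes the cytochrome c that links complexes III and IV, had 11.7, 14.4 and 13.3 against 26.0, 13.3 and 12.2, with only L1 apart from the others (log2 fold change 0.29).

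Of 13 regulators of mitochondrial genes, 9 were above 0, with a median of 0.12 and none called by limma (4 under an unadjusted p-value of 0.05). PPARGC1A, the coactivator that raises mitochondrial gene expression, had 2.07, 1.70 and 1.93 against 44.5, 5.18 and 7.14, without overlap and with L1 far above (log2 fold change 2.19; limma adjusted p = 0.129). The transcription factors ESRRA and NRF1 had log2 fold changes of 0.00 and 0.38, and TFAM, which binds mitochondrial DNA, had -0.00.

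Among the mitochondrially encoded partners, different animals stood apart in different genes. By exon coverage per gigabase, COX1, the catalytic core of complex IV, had 10759, 8656 and 9779 in Shandong black cattle against 22478, 8570 and 9407 in Luxi cattle. CYTB of complex III had 1065, 834 and 1065 against 2411, 1087 and 984. L1 was thus the highest in both, and L2 and L3 were near the Shandong black animals. COX2, also of complex IV, had 7964, 6490 and 7299 against 11556, 4624 and 6522, with L1 highest and L2 below every Shandong black animal. COX3 had 2117, 465 and 2026 against 2392, 2461 and 188, so that here B2 and L3 were far below the others and L1 was not apart. By transcript FPKM, however, COX3 was lowest in L1 (103), so that the place of L1 in this gene is uncertain. The subunits ATP6 and ATP8 of complex V had 5580 and 5561 in L1, against 523 to 992 and 163 to 377 in the other animals. Transcript FPKM of these overlapping genes in L1 was 43.5 and 17.0. A transcript listed over both genes adds to the coverage of each, so that both quantities are uncertain for them.

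Each library rested on 14.1 to 14.6 aligned gigabases in Shandong black cattle and on 17.5 to 17.99 in Luxi cattle. Mitochondrial sequence made up 16.6% of the FPKM in L1 and 4.82 to 7.91% in the others. Of 4 skeletal muscle markers none was called by limma (0 under an unadjusted p-value of 0.05). However, L1, which had the highest value of all animals in 19 members, was the lowest in ACTA1 (12237 against 32188 to 54910 in the others), CKM (1832 against 2232 to 6718) and DES (174 against 1249 to 2571). It was not the lowest in MB (7894 against 5733 to 8932). Other gene lists differed between the breeds beside the members. Over all genes tested, 1.54% were called higher in Luxi cattle and 1.02% lower, and 21.8% had an unadjusted p-value under 0.05 by limma. Without overlap, 20.0% of all genes tested were higher and 9.13% lower. The 6 adipocyte markers were all lower in Luxi cattle, with 5 called and a summed FPKM of 116 to 180 in Shandong black cattle and of 3.09 to 19.2 in Luxi cattle. The 8 markers of slow fibres, which are rich in mitochondria, had a summed FPKM of 25860 to 31983 against 3216 to 13337, with 1, TNNI1, called lower. Most of that sum was MYL2 (16912 to 24909 against 1513 to 7936). MYL2, TNNT1, TNNI1 and TNNC1 were lower without overlap, MYH7, ATP2A2 and MYH7B overlapped, and MYL3 was higher in every Luxi animal (13.1 to 46.4 against 63.5 to 1180). The 7 markers of fast fibres found had 1726 to 4093 against 3968 to 23711, with none called and 5 under an unadjusted p-value of 0.05 by limma. Of 5 fibroblast markers, 2 (COL1A2 and COL3A1) were called higher and 4 did not overlap, with a summed FPKM of 109 to 159 against 376 to 502. The 3 endothelium markers found had a sum of 14.5 to 15.1 against 19.1 to 57.7, highest in L1, with none called and 2 under an unadjusted p-value of 0.05. Blood markers were near 0 in both breeds (sums of 0.562 to 0.777 against 0.372 to 1.45), and the 3 macrophage markers overlapped in their sum (5.65 to 8.80 against 3.50 to 8.25). XIST, which is transcribed from the inactive X chromosome, had 4.83 to 14.0 against 0 to 0.207 and was called lower, so that breed and sex cannot be told apart. The part of these in the values of the members was not tested.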

How the data were processed

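RNA-Seq libraries of longissimus dorsi muscle from 3 Shandong black and 3 Luxi cattle were used. The authors used Fastp for trimming, HISAT for alignment to ARS-UCD1.2 and StringTie for assembly (1.3.3b per the file headers, with the NCBI annotation as guide and strand used), each library on its own. The deposited transcript files list coverage, FPKM and TPM per transcript in the attribute text of each line, without read counts and without a merged assembly. How reads that match several places, such as those shared with processed pseudogenes, were assigned is not given in the sources used here, so members with such copies are uncertain.

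Gene FPKM was the sum of reference transcripts and of same-strand assembled transcripts that lay on its annotated exons with 50% or more of their length. Transcripts left out held 21.6 to 29.8% of FPKM. All 47 member names were found in the RefSeq gene table of ARS-UCD2.0, used for names only; coordinates are those of the files. Genes were tested with limma 3.58.1 (R 4.3.3; lmFit and eBayes with trend) on log2(FPKM + 1), which understates changes of low genes, without scaling between animals. The authors' Methods name Cuffdiff, which needs alignments and was not run. The procedure was also run on simulated data, but its rate of detection is not given here and no conclusion is drawn from it. Shares were compared by exact two-sided permutation tests. Aligned gigabases were computed as coverage over FPKM; no counting error is given, and precision is limited by the number of animals.

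The members, gene lists and tests were chosen with earlier results of these data known. Genes described by rule were, in each complex, the members with the largest and the smallest log2 fold change and the highest FPKM, the isoform sets, SDHA to SDHD, CYC1, and ATP5IF1, COX7A2L and ATP5S, 25 in all, with CYCS, PPARGC1A, ESRRA, TFAM and NRF1; other members were named after their values were seen. Alternatives were a pseudocount of 0.1, other FPKM filters (none, or a mean of 5), TPM, scaling by size factors or quantiles, no variance trend, voom, reference transcripts alone, a replicate block, no fold-change threshold or a log2 threshold of 2, and each animal left out; exon coverage and the split by length were chosen after the data were seen. Computation used Python 3.11.15.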

Additional observations from a re-analysis of the deposited data

How the results depend on the processing

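In none of the 17 other fits, nor with other fold-change thresholds, was a member called, and the smallest adjusted p-value of a member by limma was 0.059 (without L1) to 0.275 (without B1). The same-numbered animals of the breeds deviated together only weakly (r = 0.084, 0.087 and 0.075), so the numbers were not taken as pairs, although each animal correlated best with its own number. With a replicate block 0 members were called, and 135 of all genes tested against 251. The sign was above 0 under every fit in 30 members and below 0 in 3 (SDHA, COX4I1 and COX5A). The count of 13 members without overlap became 11 with TPM, 9 with size factors and 8 with quantile normalization. It was 15 to 26 with an animal left out, highest without L2, but leaving out an animal can only keep or raise this count. The share of all genes tested is not given for these settings, so that no conclusion about the members is drawn from these counts.

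The median log2 fold change of complex II, 0.16, became 0.036 with TPM, -0.00017 with size factors, 0.033 with quantile normalization and -0.0056 with voom. That of complex III, 0.36, became 0.25 with TPM, 0.21 with size factors and 0.49 with reference transcripts only, and 0.35 to 0.49 with an animal left out. That of complex IV, 0.28, became 0.12 with size factors and 0.12 with voom, and -0.0066 (without L3) to 0.43 (without B3) with an animal left out, at 0.062 without L1. That of complex V, 0.37, became 0.25 with TPM, 0.21 with size factors, 0.25 with quantile normalization and 0.22 with voom. It was 0.28 (without L3) to 0.45 (without L2) with an animal left out. The difference in the share of COX6A2, -0.44 percentage points, ranged from -0.82 to 0.19 with an animal left out, above 0 without L1. The median over all genes tested, 0.13, also moved with the scaling. It became 0.039 with TPM, 0.017 with size factors, 0.0030 with quantile normalization and -0.00035 with voom. These settings therefore moved the typical gene and not only the complexes. The causes of the other shifts were not tested.

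Single genes near 0 changed sign. With TPM, size factors, quantile normalization and voom, in that order, the log2 fold change was -0.0070, -0.044, -0.021 and -0.048 for ATP5F1B, -0.082, -0.12, -0.089 and -0.16 for ATP5PF, -0.11, -0.14, -0.16 and -0.16 for COX7A2L, -0.035, -0.070, -0.049 and -0.076 for SDHD, and -0.096, -0.13, -0.087 and -0.14 for UQCRC2. With size factors and voom it was -0.0096 and -0.019 for ATP5MC1. With size factors, quantile normalization and voom it was -7.3e-05, -0.021 and -0.0025 for ATP5S. It was -0.34 for COX6A2 with reference transcripts only and -0.0039 for COX7A2L by exon coverage. With an animal left out the values ranged from -0.070 to 0.30 for ATP5MC1, -0.13 to 0.30 for ATP5PF, -0.11 to 0.56 for COX6A2, -0.19 to 0.21 for COX7A2, -0.12 to 0.15 for COX7A2L, -0.19 to 0.11 for COX8A, -0.0070 to 0.17 for SDHD and -0.039 to 0.069 for UQCRC2. The files give no read counts, so the depth behind low members such as COX4I2 and COX7B2 limits them to an unknown extent.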
